A study of Mus musculus with 6 samples.

Results

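The 30 cell cycle genes described here are transcribed mainly in dividing cells and were taken by symbol from a brain expression table of 54532 gene identifiers. They were listed by their known function, with earlier results of these data in view, and fall into 9 genes of DNA synthesis (the minichromosome maintenance genes Mcm2 to Mcm7, Pcna, Rrm2 and Tyms, called S phase members below) and 21 genes of mitosis (Mki67, Top2a, Cdk1, Ccnb1, Ccnb2, Ccna2, Cdc20, Ube2c, Birc5, Aurka, Aurkb, Bub1, Bub1b, Plk1, Kif11, Kif20a, Kif23, Cenpf, Cenpe, Nusap1 and Tpx2, called mitotic members). All 30 were found, each with 1 identifier.

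RNA was taken from brain with all its cell types, at postnatal day 15, from 3 Angptl2+/+ and 3 Angptl2-/- samples of mice on a C57BL/6 background, and sequenced as paired ends. Angptl2 encodes a secreted angiopoietin-like protein. The null allele lacks exon 2 of Angptl2 and came from males that carried Angptl2 fl/fl and Stra8-cre, a Cre active in male germ cells, which were crossed to wild-type females, so that the deletion is inherited in every tissue. The sources give n = 3 but do not say that each sample is a separate mouse or how the brains were cut, so p-values measure the spread between these samples. Xist, transcribed from the inactive X chromosome, was at 27.4 and 27.9 FPKM in Angptl2+/+ replicates 1 and 2 and 42.2 FPKM in Angptl2-/- replicate 2, and at 0.0697 FPKM or less in the other libraries, which held transcripts of Y-linked genes. Female and male libraries thus numbered 2 and 1 in Angptl2+/+ but 1 and 2 in Angptl2-/-, which was not adjusted for.

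The values are FPKM, fragments per kilobase of exon scaled to library depth. The exon length that fits nearly all of them is that of all annotated exons of a gene together. A gene whose transcripts use only part of these exons is therefore understated, and levels of different genes compare only roughly. The libraries held 17127276 to 18928921 fragments on genes. Angptl2 itself, counted over the whole gene and not over exon 2 alone, came to 0.660, 0.958 and 0.290 FPKM in Angptl2+/+ and 0.166, 0.320 and 0.126 FPKM in Angptl2-/- (replicates in order of number, as throughout), so that the genotypes overlapped (exact permutation test, two-sided p = 0.2, n = 3 each). Angptl2+/+ replicate 1 stood apart by its cerebellar transcripts: Cbln3 was at 10.9 FPKM and Gabra6 at 10.5 FPKM in that library, and both were below 0.3 FPKM in each of the others. The cerebellum holds granule cell precursors that divide after birth. Of their markers, Atoh1 and Barhl1 were at 0 in the other 5 libraries and at 0.0528 and 1.82 FPKM in Angptl2+/+ replicate 1. All 6 precursor markers listed, Atoh1 and Barhl1 among them, summed to 16.2 FPKM in that library and to 10.2 to 13.3 FPKM in the other 5. The part of these cells in the values below was not tested. RNA of whole tissue mixes all cell types, so fewer dividing cells and less RNA per dividing cell cannot be told apart in any value below.

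A dividing cell first copies its DNA in S phase and then, after a gap, condenses and separates the copies in mitosis. The S phase members supply the replication helicase, the sliding clamp and the nucleotides, and their transcription is known to depend on E2F factors, which are held in check by the retinoblastoma protein and its relatives. Mitotic genes are transcribed later, and their promoters are known for a cell cycle genes homology region (CHR), bound by the MuvB complex with B-MYB and FOXM1, and for CCAAT boxes bound by NF-Y. In brain of this age most neurons have left the cycle, and dividing cells are mainly glial precursors, cells of the subventricular zone and dentate gyrus, granule cell precursors of the cerebellum, microglia and endothelium.

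The letters of these 2 programs can be read in the promoters. RefSeq start sites on GRCm38.p6 gave windows of 250 bases before to 50 bases after the start for 25 of the 30 members and for 27025 genes in all, and a gene was counted once if any of its windows held a motif on either strand. A CHR word (TTTGAA or TTCGAA) lay in 13 of 17 mitotic members with a window (76.5%), in 2 of 8 S phase members (25.0%) and in 21.7% of all genes. The E2F words searched were TTGGCGC, its variant TTCCCGC, the further variant TTCGCGC and, as the last of them, TTGCCGC. Any of these lay in 3 of 17 mitotic members (17.6%), in 5 of 8 S phase members (62.5%) and in 10.9% of all genes. CCAAT lay in 15 of 17 mitotic members (88.2%), in 7 of 8 S phase members (87.5%) and in 41.1% of all genes. With 1 more T in front of each E2F word, the counts were 1 of 17, 4 of 8 and 2.6% of all genes. Words on opposite strands can overlap, as TTGGCGC and the reverse of TTCGCGC do in Mcm6. These matches are descriptions of the letters and not measured binding sites.

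The 200 bases from 170 before to 30 after the start are printed 5′ to 3′ for the 4 tested mitotic members with the largest difference between genotypes and separate groups, for Cdc20, the member whose groups were separate in the opposite direction, and for Mcm6 and Mcm7, the S phase members with separate groups. Capitals mark CHR and E2F words, on either strand, that lie whole within the printed bases. Mcm7 has a further RefSeq start, whose 200 bases at chr5:138171237-138171436 are not printed and hold the E2F word TTCCCGC.
Mki67, chr7:135716350-135716549, minus strand: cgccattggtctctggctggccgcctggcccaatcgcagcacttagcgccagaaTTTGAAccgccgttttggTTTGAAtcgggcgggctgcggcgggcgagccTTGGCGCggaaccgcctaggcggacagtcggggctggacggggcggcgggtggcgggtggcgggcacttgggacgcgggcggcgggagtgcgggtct
Top2a, chr11:99024160-99024359, minus strand: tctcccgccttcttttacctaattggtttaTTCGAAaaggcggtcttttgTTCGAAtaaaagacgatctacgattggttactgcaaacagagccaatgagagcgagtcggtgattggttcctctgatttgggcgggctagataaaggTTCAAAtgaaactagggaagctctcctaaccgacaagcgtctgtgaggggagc
Ccnb2, chr9:70421525-70421724, minus strand: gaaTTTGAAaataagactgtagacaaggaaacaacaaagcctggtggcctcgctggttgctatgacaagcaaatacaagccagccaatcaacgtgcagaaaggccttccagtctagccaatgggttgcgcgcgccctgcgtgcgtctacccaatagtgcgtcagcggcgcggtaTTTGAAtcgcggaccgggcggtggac
Kif11, chr19:37376212-37376411, plus strand: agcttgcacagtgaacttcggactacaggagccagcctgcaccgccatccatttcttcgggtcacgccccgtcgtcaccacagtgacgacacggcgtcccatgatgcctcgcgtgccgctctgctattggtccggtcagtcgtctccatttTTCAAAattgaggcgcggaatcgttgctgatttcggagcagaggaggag
Cdc20, chr4:118437314-118437513, minus strand: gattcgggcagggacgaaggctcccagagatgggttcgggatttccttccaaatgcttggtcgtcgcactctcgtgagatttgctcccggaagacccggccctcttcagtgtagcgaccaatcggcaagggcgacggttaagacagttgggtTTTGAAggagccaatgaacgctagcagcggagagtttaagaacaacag
Mcm6, chr1:128359676-128359875, minus strand: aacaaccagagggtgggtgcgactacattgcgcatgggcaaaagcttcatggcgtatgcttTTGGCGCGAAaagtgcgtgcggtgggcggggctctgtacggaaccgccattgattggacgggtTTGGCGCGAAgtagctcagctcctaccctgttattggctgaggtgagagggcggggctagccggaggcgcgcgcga
Mcm7, chr5:138171854-138172053, minus strand: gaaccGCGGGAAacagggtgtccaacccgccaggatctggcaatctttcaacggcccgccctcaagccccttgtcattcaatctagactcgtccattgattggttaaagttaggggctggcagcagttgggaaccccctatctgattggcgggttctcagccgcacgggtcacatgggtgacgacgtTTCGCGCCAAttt
Mki67 holds 2 CHR words and 1 E2F word, while Kif11 and Cdc20 hold 1 CHR word each. Cdc20 thus shares its CHR word with Mki67, Top2a, Ccnb2 and Kif11, although its difference between genotypes had the opposite sign in these libraries. Mcm6 holds 2 runs in which E2F words of both strands overlap.

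Transcripts of the mitotic members were scarce in all libraries. The mean over 6 libraries of each of the 21 mitotic members was below 1 FPKM, from 0.143 FPKM for Bub1 to 0.834 FPKM for Kif11 with a median of 0.515 FPKM, while the genes tested had a median of 5.16 FPKM. A mitotic member rested on 1 to 176 fragments in a library, with a median of 26.5. S phase members were more abundant, from 0.229 FPKM for Tyms to 14.1 FPKM for Pcna with a median of 1.42 FPKM, and rested on 13 to 636 fragments with a median of 92. In the order of mean levels Pcna stood first, followed by Mcm7 at 2.87, Mcm4 at 2.63, Mcm6 at 1.98, Rrm2 at 1.42, Mcm5 at 1.18, Kif11 at 0.834 and Cdc20 at 0.803 FPKM. Only Pcna was separated from its neighbour in this order, and the ranges over libraries of the other 28 of 29 neighbouring pairs overlapped.

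**Figure D1:**
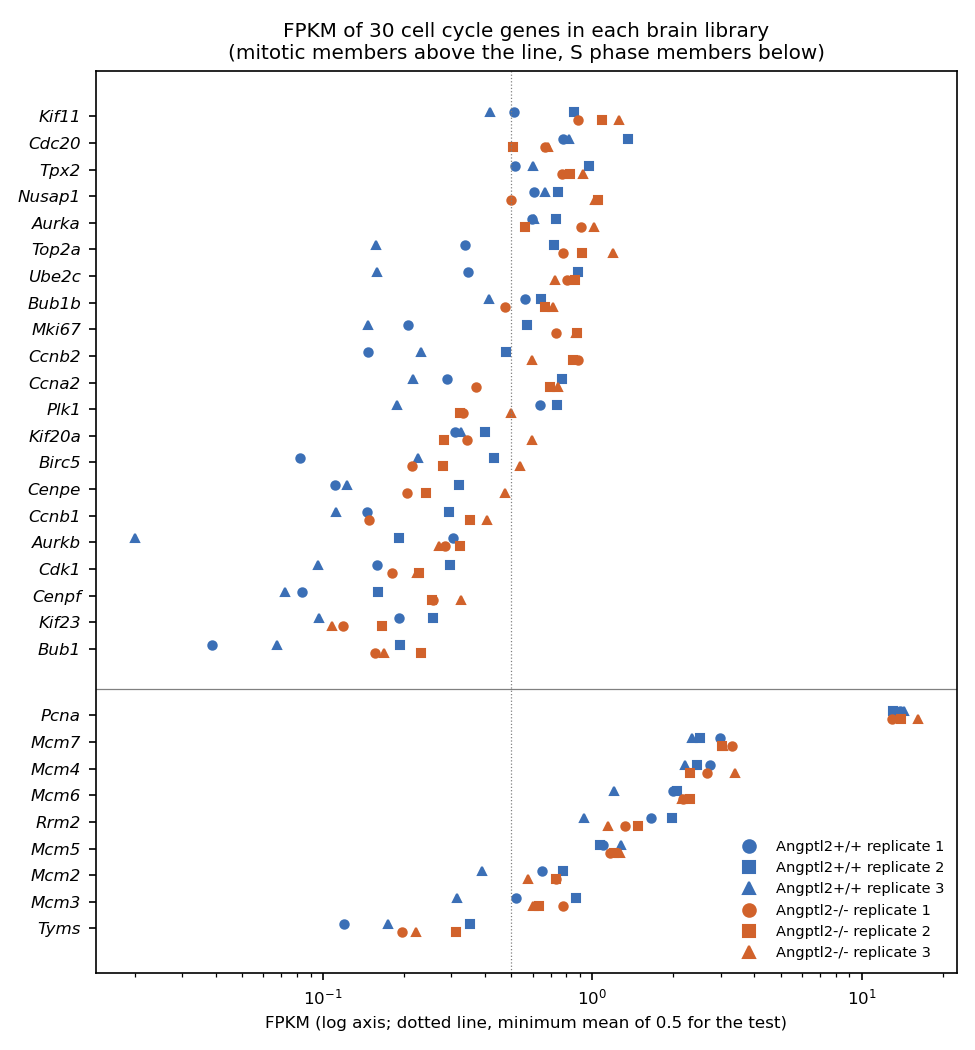
FPKM (log axis) of the 30 members in each of the 6 libraries, mitotic members above the line and S phase members below, each ordered by mean; circles, squares and triangles are replicates 1, 2 and 3, blue Angptl2+/+ and orange Angptl2-/-. Pcna lies near 14.1 FPKM and every mitotic member has a mean below 1 FPKM, with Angptl2+/+ replicate 2 to the right of the other Angptl2+/+ libraries in 20 of 21 mitotic members.

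Genotypes were compared with limma on log2(FPKM + 0.1), two-sided, Angptl2-/- minus Angptl2+/+, for the 14862 genes with a mean of at least 0.5 FPKM. This scale understates the differences of genes as low as these. Of the 30 members, 19 were tested and 11 were below the minimum (10 mitotic members and Tyms). No member passed an adjusted p of 0.05 (Benjamini-Hochberg over all genes tested, adjusted p from 0.277 to 0.867), nor did any other gene (0.0%). At an unadjusted p under 0.05, 4 members were higher in Angptl2-/- and 0 lower, beside 7.09% and 9.12% of all genes tested. These 4 were Mki67, Top2a, Ccnb2 and Kif11, all mitotic. In a fit without the minimum, over 29827 genes, Cenpf joined them (limma adjusted p = 0.480), which made 5 members higher and 0 lower at an unadjusted p, beside 4.54% and 5.29% of those genes. The difference was positive in 26 of 30 members and negative in Cdc20, Plk1, Kif23 and Rrm2, with a median of 0.28 over the 30 and −0.00 over all genes tested.

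Mki67, which encodes Ki-67, the protein that coats mitotic chromosomes and marks cycling cells, had 0.206, 0.571 and 0.146 FPKM in Angptl2+/+ and 0.736, 0.877 and 0.868 FPKM in Angptl2-/-. All 3 Angptl2-/- libraries were above all 3 Angptl2+/+ libraries, and Angptl2+/+ replicate 2 was the nearest to them. The means were 0.308 ± 0.230 and 0.827 ± 0.0789 FPKM (SD, n = 3 each), a ratio of 2.69, and the log2 difference was 1.32 ± 0.46 (SE, 95% interval 0.24 to 2.40, limma adjusted p = 0.277). These values rested on 37, 102 and 25 fragments in Angptl2+/+ and on 142, 149 and 143 in Angptl2-/-. The gene lies on the minus strand at chr7:135689784-135716361 of GRCm38.

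Top2a, the topoisomerase that untangles sister chromatids, had 0.336, 0.718 and 0.157 FPKM in Angptl2+/+ and 0.775, 0.914 and 1.19 FPKM in Angptl2-/-. The groups did not overlap, but Angptl2+/+ replicate 2 came close to Angptl2-/- replicate 1. The log2 difference was 1.22 ± 0.47 (SE, interval 0.11 to 2.32, limma adjusted p = 0.287), with a ratio of means of 2.38.

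Ccnb2, one of the B-type cyclins that activate Cdk1 at entry into mitosis, had 0.146, 0.478 and 0.231 FPKM in Angptl2+/+ and 0.886, 0.851 and 0.598 FPKM in Angptl2-/-. Again the groups were separate, with a log2 difference of 1.27 ± 0.44 (SE, interval 0.23 to 2.30, limma adjusted p = 0.277). The value is uncertain on 2 counts. Only 4, 13 and 6 fragments were assigned to it in Angptl2+/+ and 26, 22 and 15 in Angptl2-/-. A processed copy, Ccnb2-ps, was listed at 0.903 to 1.20 FPKM in Angptl2+/+ and at 1.28 to 1.29 FPKM in Angptl2-/-, and counting may have split reads between them. Ccnb1, the other B-type cyclin, had 0.146, 0.294 and 0.112 FPKM against 0.148, 0.351 and 0.405 FPKM and its groups overlapped. It too has a processed copy, Ccnb1-ps, with which reads may have been split. That copy was at 0, 0.0875 and 0 FPKM in Angptl2+/+ and at 0.0405, 0.322 and 0.142 FPKM in Angptl2-/-.

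Cdk1, their catalytic partner, had 0.159, 0.297 and 0.0955 FPKM in Angptl2+/+ and 0.180, 0.228 and 0.223 FPKM in Angptl2-/-. Its groups overlapped, and the log2 difference was 0.19. Ccna2, the cyclin of S phase and the gap before mitosis, had a log2 difference of 0.52 (adjusted p = 0.611) with overlapping groups, and shares 12.5% of its exon length with Exosc9 on the opposite strand, whose mean was 4.56 FPKM. Whether strand was used in counting is not given in the sources used here, so reads of such a pair cannot be told apart.

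The spindle motors and kinetochore proteins were split. Kif11, the kinesin that pushes spindle poles apart, had 0.512, 0.853 and 0.416 FPKM in Angptl2+/+ and 0.887, 1.08 and 1.25 FPKM in Angptl2-/-. Its groups were separate by a narrow margin, and the log2 difference was 0.80 ± 0.32 (SE, interval 0.06 to 1.54, limma adjusted p = 0.290). Cenpf, a large protein of the kinetochore, had 0.0835, 0.160 and 0.0725 FPKM in Angptl2+/+ and 0.257, 0.253 and 0.324 FPKM in Angptl2-/-. Those groups did not overlap, with a ratio of means of 2.64 from 19 to 82 fragments, and its exact permutation p of 0.1 is the smallest that 3 against 3 libraries can give (two-sided). Cenpe, the kinesin that carries chromosomes to the metaphase plate, had a log2 difference of 0.53, and its groups overlapped. The kinesins of cytokinesis had log2 differences of −0.25 for Kif23 and 0.14 for Kif20a, and Kif20a shares 29.3% of its exon length with Cdc23 on the opposite strand. Tpx2 and Nusap1, which bind spindle microtubules, differed by 0.27 and 0.25 on the log2 scale with overlapping groups (adjusted p = 0.654 and 0.719).

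The mitotic kinases and their partners came next. Aurka, the kinase of the spindle poles, had a log2 difference of 0.28 (adjusted p = 0.643), and Plk1, which acts from entry into mitosis to cytokinesis, had −0.23 (exact permutation p = 0.8) and 0.056 without Angptl2+/+ replicate 2. Aurkb and Birc5, partners in the chromosomal passenger complex, had 0.69 and 0.42, but Aurkb rested on 1 fragment in Angptl2+/+ replicate 3 and 10 to 16 in the other libraries. Bub1 and Bub1b, kinases of the spindle checkpoint (the latter without clear catalytic activity), had 0.58 and 0.17. In each of these 6 genes the groups overlapped, and 5 differences were positive and that of Plk1 negative. Leaving out 1 Angptl2+/+ library took Aurkb to 0.19 (replicate 3) or 1.06 (replicate 1), Birc5 to 0.029 (replicate 1) or 0.80 (replicate 2), and Bub1 to 0.35 (replicate 1) or 0.89 (replicate 2).

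Cdc20 was the 1 mitotic member whose groups were separate in the other direction. It encodes the activator of the anaphase-promoting complex, the ubiquitin ligase that ends mitosis, and had 0.780, 1.36 and 0.820 FPKM in Angptl2+/+ and 0.670, 0.507 and 0.686 FPKM in Angptl2-/-. Each Angptl2-/- library was below each Angptl2+/+ library, with a log2 difference of −0.56 ± 0.30 (SE, interval −1.27 to 0.15, limma adjusted p = 0.384). Cdc20 rested on 16 to 45 fragments a library. It shares 2.84% of its exon length with Elovl1 on the opposite strand, whose mean was 5.76 FPKM. Ube2c, the ubiquitin-conjugating enzyme that works with the same ligase, had 0.345, 0.888 and 0.159 FPKM against 0.802, 0.866 and 0.728 FPKM. Its log2 difference was 0.89 (interval −0.31 to 2.08, adjusted p = 0.406), and Angptl2+/+ replicate 2 was the highest library of all 6. The difference was 1.40 without that library and 0.44 without Angptl2+/+ replicate 3, and that of Cdc20 was −0.33 without Angptl2+/+ replicate 2. After the GC content correction described in the methods, which was chosen after the data were seen, the groups of Top2a, Kif11 and Cdc20 overlapped, with log2 differences of 1.03, 0.58 and −0.35, and those of Ube2c were separate, with 1.10. Cdc20 also lost its separation under the gene length correction (−0.46).

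As a group, the 21 mitotic members had a median log2 difference of 0.49 (range −0.56 to 1.32, and 0.52 over the 11 tested), with 18 positive and 3 negative. In 5 of them all Angptl2-/- libraries were above all Angptl2+/+ libraries (Mki67, Top2a, Ccnb2, Kif11 and Cenpf), in 1 below (Cdc20), and in 15 the groups overlapped. Over all 29827 genes above 0 in a library, 7.24% were separate in the first direction and 7.12% in the second, and over the genes tested 10.7% and 11.8%. The size of the median changed with the library left out. It was 0.35, 0.80 and 0.25 without Angptl2+/+ replicates 1, 2 and 3, and 0.65, 0.47 and 0.26 without Angptl2-/- replicates 1, 2 and 3. The count of 4 members at an unadjusted p was 1 without Angptl2+/+ replicate 1. That 1 was Mcm7, an S phase member, and Mki67, Top2a, Ccnb2 and Kif11 were each above 0.05. It was 5 and 1 without Angptl2+/+ replicates 2 and 3, and 2, 0 and 1 without Angptl2-/- replicates 1, 2 and 3. Over all 14862 genes tested, 599, 676 and 1373 were higher without Angptl2+/+ replicates 1, 2 and 3. Without Angptl2-/- replicates 1, 2 and 3 these were 1370, 481 and 465, against 1054 with all libraries.

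**Figure D2:**
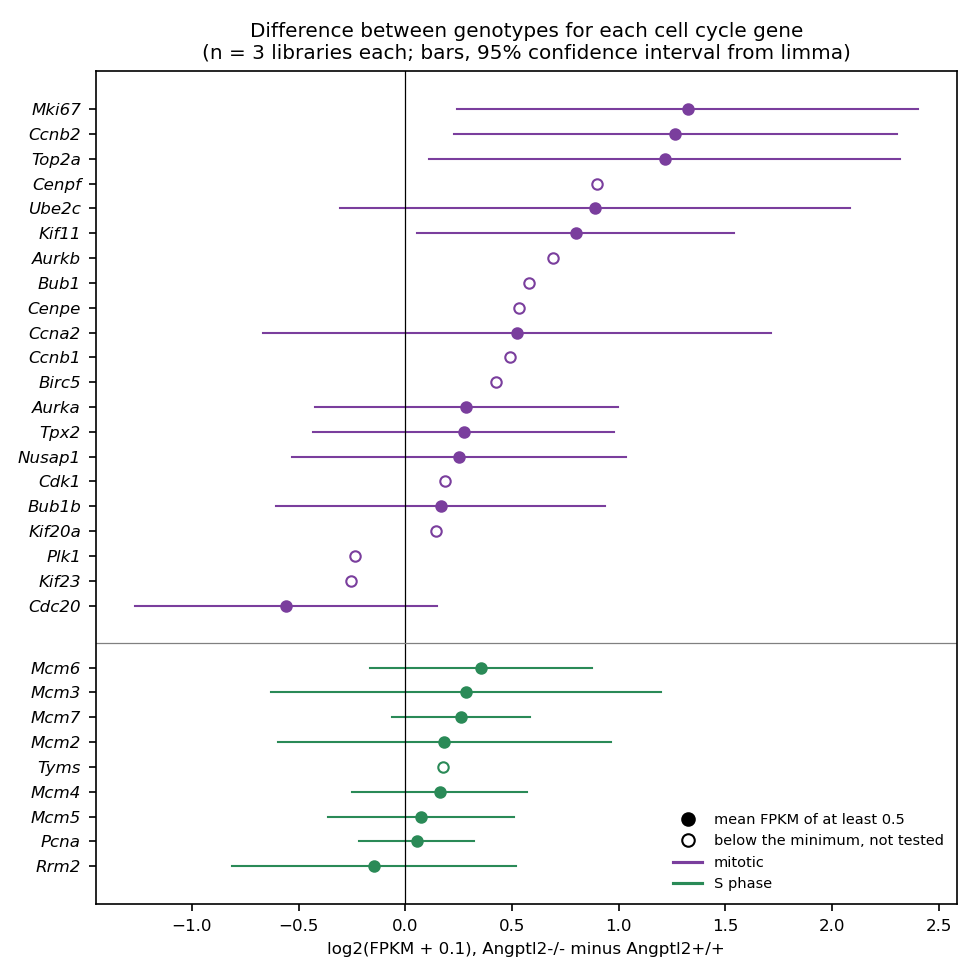
Log2(FPKM + 0.1) difference, Angptl2-/- minus Angptl2+/+, of each mitotic (purple) and S phase (green) member; bars are 95% intervals from limma (n = 3 libraries each) and open circles are members below the minimum mean of 0.5 FPKM, which were not tested. The intervals of Mki67, Ccnb2, Top2a and Kif11 lie above 0, while those of the other 15 tested members cross it.

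The spread among the Angptl2+/+ libraries was as large as the difference between genotypes: the mean log2(FPKM + 0.1) of the 21 genes differed by 0.47 between genotypes and had an SD of 0.48 over the 3 Angptl2+/+ libraries (0.18 over the 3 Angptl2-/- libraries). The standard deviation of FPKM was larger in Angptl2+/+ than in Angptl2-/- for 15 of 21 mitotic members. Among the Angptl2+/+ libraries, replicate 2 was highest in 20 of 21 mitotic members, and the lowest was replicate 3 in 12 and replicate 1 in 9. The FPKM of the 21 genes summed to 6.96, 12.02 and 5.76 in Angptl2+/+ and to 10.0, 11.6 and 13.4 in Angptl2-/-. Angptl2+/+ replicate 2 thus lay among the Angptl2-/- libraries.

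The S phase members differed less between genotypes. Their median log2 difference was 0.18 (range −0.15 to 0.36, and 0.17 over the 8 tested), with 8 positive and 1 negative. At an unadjusted p under 0.05, 0 of the 8 tested were called, beside 7.09% higher and 9.12% lower of all genes tested. Mcm7 was under that p after the GC content correction and without Angptl2+/+ replicate 1 (limma, unadjusted p = 0.0151 and 0.0467). In 2 of the 8 tested all Angptl2-/- libraries were above and in 0 below, beside 10.7% and 11.8% of all genes tested. None of the 9 had a log2 difference above 0.5, against 10 of the 21 mitotic members, among them Cenpf, Cenpe, Aurkb and Bub1, which were not tested. Mitotic members rested on a median of 26.5 fragments a library and S phase members on 92. Standard errors ran from 0.30 to 0.51 in the tested mitotic members and from 0.11 to 0.39 in the tested S phase members. The counts above a log2 difference of 0.5 were not set against genes of like level. Subunits of the Mcm2 to Mcm7 helicase, which unwinds DNA at the replication fork, make up 6 of these genes. Mcm6 had 1.99, 2.06 and 1.20 FPKM in Angptl2+/+ and 2.17, 2.31 and 2.16 FPKM in Angptl2-/-. Its groups were separate, with a log2 difference of 0.36 ± 0.22 (SE, interval −0.16 to 0.88, limma adjusted p = 0.434). Without Angptl2+/+ replicate 3, the lowest library, the difference was 0.12. The groups overlapped after the GC content correction (0.29) and in voom on recovered fragments (0.37).

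Mcm7 had 2.98, 2.51 and 2.34 FPKM in Angptl2+/+ and 3.30, 3.04 and 3.06 FPKM in Angptl2-/-, and its log2 difference was 0.26 ± 0.14 (SE, interval −0.06 to 0.58, limma adjusted p = 0.375). The groups were separate, though the highest Angptl2+/+ library was just under the lowest Angptl2-/- library, and they overlapped in voom on recovered fragments (0.26). Mcm7 shares 7.25% of its exon length with Ap4m1 and 1.45% with Cops6, both on the opposite strand, and Cops6 was at 27.0 FPKM. The other 4 subunits had overlapping groups, with log2 differences of 0.18 for Mcm2, 0.28 for Mcm3, 0.16 for Mcm4 and 0.07 for Mcm5. Although they form 1 complex, the mean levels of the 6 subunits ranged from 0.620 FPKM for Mcm3 to 2.87 FPKM for Mcm7.

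Pcna, the clamp that holds polymerases on DNA in replication and in repair, was the most abundant member. It had 13.9, 13.1 and 14.4 FPKM in Angptl2+/+ and 13.0, 14.0 and 16.2 FPKM in Angptl2-/-, from 560 to 636 fragments a library. The groups overlapped, and the log2 difference of 0.05 had an interval from −0.21 to 0.32 (limma adjusted p = 0.835). Rrm2, the small subunit of ribonucleotide reductase, had 1.66, 1.97 and 0.935 FPKM in Angptl2+/+ and 1.32, 1.48 and 1.15 FPKM in Angptl2-/-, and the Angptl2-/- libraries lay within the Angptl2+/+ range. Its log2 difference was −0.15 (interval −0.81 to 0.52, adjusted p = 0.815). Tyms, which makes thymidylate, was below the minimum, with 0.120, 0.351 and 0.174 FPKM against 0.197, 0.311 and 0.221 FPKM.

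The S phase and mitotic members were then set against each other within each library, as the mean log2(FPKM + 0.1) of the 9 minus that of the 21. In Angptl2+/+ this value came to 2.05, 1.56 and 1.99, against 1.73, 1.57 and 1.35 in Angptl2-/-. The means were 1.86 ± 0.27 and 1.55 ± 0.19 (SD, n = 3 each), a difference of −0.32, and the groups overlapped because Angptl2+/+ replicate 2 lay among the Angptl2-/- libraries. With a pseudocount of 1 FPKM, which dampens genes below that level, the difference was −0.073 and the medians of the mitotic and S phase members were 0.14 and 0.073. The median of the mitotic members was above that of the S phase members under each setting tried, but without Angptl2-/- replicate 3 the 2 medians were 0.26 and 0.22.

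**Figure D3:**
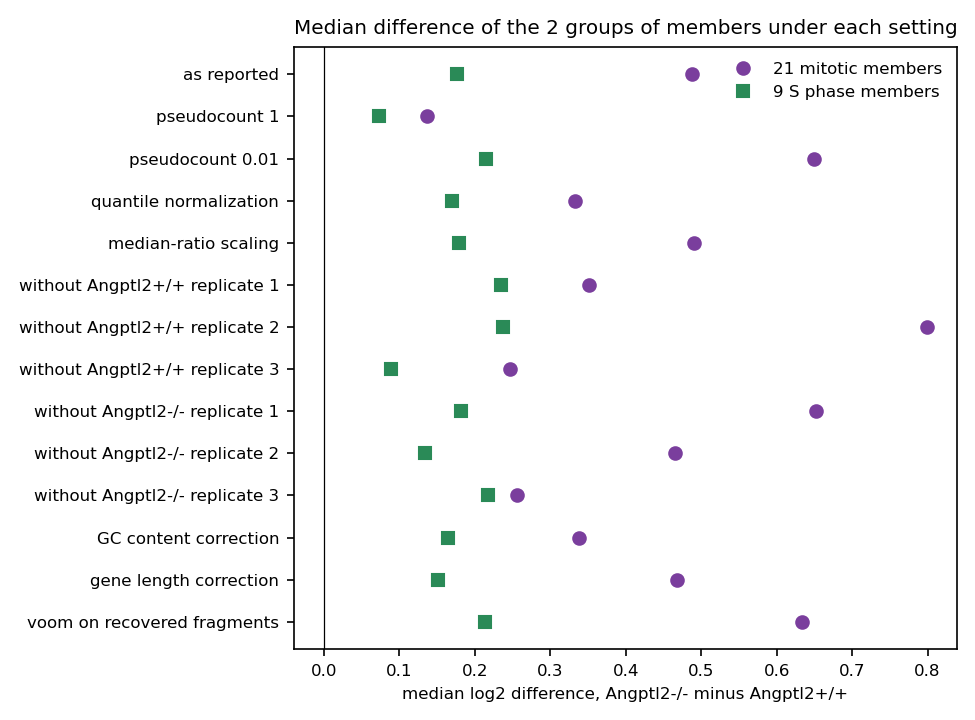
Median log2 difference, Angptl2-/- minus Angptl2+/+, of the 21 mitotic members (purple circles) and the 9 S phase members (green squares) as reported and under alternative settings. The mitotic median runs from 0.14 with a pseudocount of 1 to 0.80 without Angptl2+/+ replicate 2, and the S phase median from 0.07 to 0.24.

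Other genes of the cycle were read from lists that hold no member. Of 38 further genes of mitosis, 30 had a positive and 8 a negative log2 difference, with a median of 0.43 over all and 0.18 over the 15 tested. Of those 15, 0 passed the adjusted p, and 1 was higher and 1 lower at an unadjusted p. The shares of all genes tested at that unadjusted p were 7.09% and 9.12%. Pbk, a mitotic kinase, had 0.219, 0.848 and 0.0658 FPKM in Angptl2+/+ and 0.728, 0.926 and 1.36 FPKM in Angptl2-/- (log2 difference 1.54, adjusted p = 0.305), and Angptl2+/+ replicate 2 again lay among the Angptl2-/- libraries. Cdc25c, the phosphatase that activates Cdk1, had a log2 difference of 0.92 (adjusted p = 0.408) with overlapping groups. Pttg1, the securin that guards the cohesion of sister chromatids, had the opposite sign: it had 6.61, 6.28 and 6.13 FPKM in Angptl2+/+ and 5.16, 4.86 and 3.75 FPKM in Angptl2-/- (log2 difference −0.47 ± 0.14 (SE), adjusted p = 0.273). In 7 of the 38 genes all Angptl2-/- libraries were above the Angptl2+/+ libraries (Aspm, Cep55, Fbxo5, Kif4, Plk4, Prc1 and Spc25), and in 1, Pttg1, below, beside 7.24% and 7.12% of all genes above 0 in a library. Of the 15 tested, 2 were above and 1 below, beside 10.7% and 11.8% of all genes tested. The others above were among the 23 genes under the minimum of 0.5 FPKM.

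Among 29 further genes of replication, 17 differences were positive and 12 negative, with a median of 0.05. Of the 17 tested, 0 passed an unadjusted p under 0.05 in either direction, beside 7.09% and 9.12% of all genes tested. Cdt1, which loads the Mcm helicase, had a log2 difference of −0.48 (adjusted p = 0.424), Gins4, part of the active helicase, −0.31 (adjusted p = 0.399), and Orc6, part of the origin recognition complex, 0.34 (adjusted p = 0.352). The mitosis and replication genes that are no members had medians of 0.43 and 0.05, and of 0.18 and 0.05 over those tested. That order is the same as in the members. It is not independent of them, since the lists were read from the same libraries and chosen with earlier results known.

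Among regulators that act before S phase, the median was 0.09 over 8 G1 cyclins and kinases (range −0.49 to 0.37) and −0.08 over 6 inhibitors of cyclin-dependent kinases, with no adjusted call in either list. At an unadjusted p, 0 of the 6 tested G1 genes were higher and 1, Ccnd3, lower, beside 7.09% and 9.12% of all genes tested. Ccnd3, a D-type cyclin, had 2.36, 2.36 and 1.93 FPKM in Angptl2+/+ and 1.76, 1.40 and 1.49 FPKM in Angptl2-/- (log2 difference −0.49, adjusted p = 0.274), and its groups were separate. Ccnd2, the most abundant of that list, differed by 0.15, Ccne2 by 0.37 and Cdk4 by −0.06, with overlapping groups. Among inhibitors, Cdkn2d, the most abundant, differed by −0.09, Cdkn1a by −0.14 and Cdkn2c by −0.08. The activators E2f1 and E2f3, known to drive S phase genes, differed by −0.02 and 0.22 with overlapping groups, in a list of 5 with a median of 0.09 and 0 members at an unadjusted p under 0.05.

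The repressive side of the E2F and MuvB system gave 2 higher and 1 lower of 8 tested at an unadjusted p, beside 7.09% and 9.12% of all genes tested, 0 past the adjusted p, and a median of 0.17 over its 9 genes. In 3 of the 9 all Angptl2-/- libraries were above and in 1 below, beside 7.24% and 7.12% of all genes above 0 in a library. Of the 8 tested, 2 were above and 1 below, beside 10.7% and 11.8% of all genes tested. Rb1, the retinoblastoma protein, had 6.55, 5.72 and 6.95 FPKM in Angptl2+/+ and 8.13, 8.01 and 10.3 FPKM in Angptl2-/- (log2 difference 0.45, adjusted p = 0.273), with separate groups. E2f5, a repressor E2F, differed by 0.39 and Lin37, a subunit of MuvB, by −0.28 (adjusted p = 0.274 and 0.277), both with separate groups. E2f4, the most abundant repressor E2F, differed by −0.07.

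Markers of the cell types that divide in brain, and of regions that a cut could include, are given beside the mitotic members, and their part in the result was not tested. Striatal markers, which mark neurons that do not divide, were positive in 8 of 8, with 6 higher at an unadjusted p and 4 with separate groups. The shares of all genes tested in that direction were 7.09% and 10.7%, also for the lists that follow, and 9.12% and 11.8% in the other. Their FPKM summed to 61.8, 147 and 83.4 in Angptl2+/+ and to 138, 206 and 261 in Angptl2-/-. Angptl2+/+ replicate 2 was thus high in this list as it was in the mitotic members. Tac1 and Penk, the neuropeptide genes of striatal projection neurons, differed by 1.26 and 1.22 on the log2 scale (adjusted p = 0.273 each).

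Genes of neuroblasts and forebrain progenitors, the offspring of the subventricular zone, were positive in 7 of 9, with 2 higher at an unadjusted p, 1 with separate groups and a median of 0.54. Their FPKM summed to 32.7, 67.4 and 34.7 in Angptl2+/+ and to 85.0, 47.3 and 62.9 in Angptl2-/-, so that the genotypes overlapped. Cd24a, the most abundant of them, had 10.2, 18.4 and 9.84 FPKM against 26.3, 20.0 and 20.2 FPKM (log2 difference 0.84, adjusted p = 0.273). Angptl2+/+ replicate 2 was high here too, but Angptl2-/- replicate 2, with a high mitotic sum, was not. Choroid plexus markers were positive in 7 of 7, with 5 separate, and summed to 5.43, 7.78 and 1.67 FPKM in Angptl2+/+ and to 148, 938 and 105 FPKM in Angptl2-/-. They were highest in Angptl2-/- replicate 2, while the mitotic sum was highest in Angptl2-/- replicate 3.

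Glial and vascular lists had medians near 0 or below it. Oligodendrocyte precursor markers, the main dividing glia at this age, had a median of −0.03, 3 positive and 3 negative, and summed to 29.9 to 43.8 FPKM in Angptl2+/+ and 34.0 to 43.8 FPKM in Angptl2-/-. Within that list Vcan differed by 0.65 (adjusted p = 0.273) and Lhfpl3, the most abundant, by 0.41 (adjusted p = 0.425). Microglial markers had a median of −0.00, with 0.44 for P2ry12, and endothelial markers a median of −0.14, with −0.69 for Cldn5. Astrocyte markers had a median of 0.06, with −0.62 for Aldh1l1 and 0.06 for Slc1a2, and neuronal markers 0.07, with −0.47 for Rbfox3 and −0.12 for Slc17a7.

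Cerebellar granule cell markers were negative in 7 of 7 with overlapping groups, and their sum was 108 FPKM in Angptl2+/+ replicate 1 and 16.7 to 38.1 FPKM in the other libraries. In that library of high cerebellar RNA the mitotic sum of 6.96 FPKM was the second lowest. Without it the median difference of the mitotic members was 0.35. Granule cell precursor markers were negative in 6 of 6, with 1 of 3 tested lower at an unadjusted p and 1 with separate groups. Of the 6, Atoh1 and Barhl1 were detected only in Angptl2+/+ replicate 1. The list summed to 16.2, 13.3 and 12.1 FPKM in Angptl2+/+ and to 12.7, 10.2 and 11.2 FPKM in Angptl2-/-. Mycn and Ptch1 differed by −0.47 and −0.05. Mature oligodendrocyte markers were negative in 6 of 6, with 1 lower at an unadjusted p and 1 with separate groups (Mag −0.82). Their FPKM summed to 1320, 627 and 691 in Angptl2+/+ and to 416, 608 and 886 in Angptl2-/-, so that the genotypes overlapped. The highest sum was that of Angptl2+/+ replicate 1, the library of high cerebellar RNA. Red blood cell markers were negative in 6 of 6 (Hbb-bs −0.97 with overlapping groups, Hbb-bt −1.09 with separate ones). Of these, 5 of 5 tested were lower at an unadjusted p and 3 had separate groups.

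**Figure D4:**
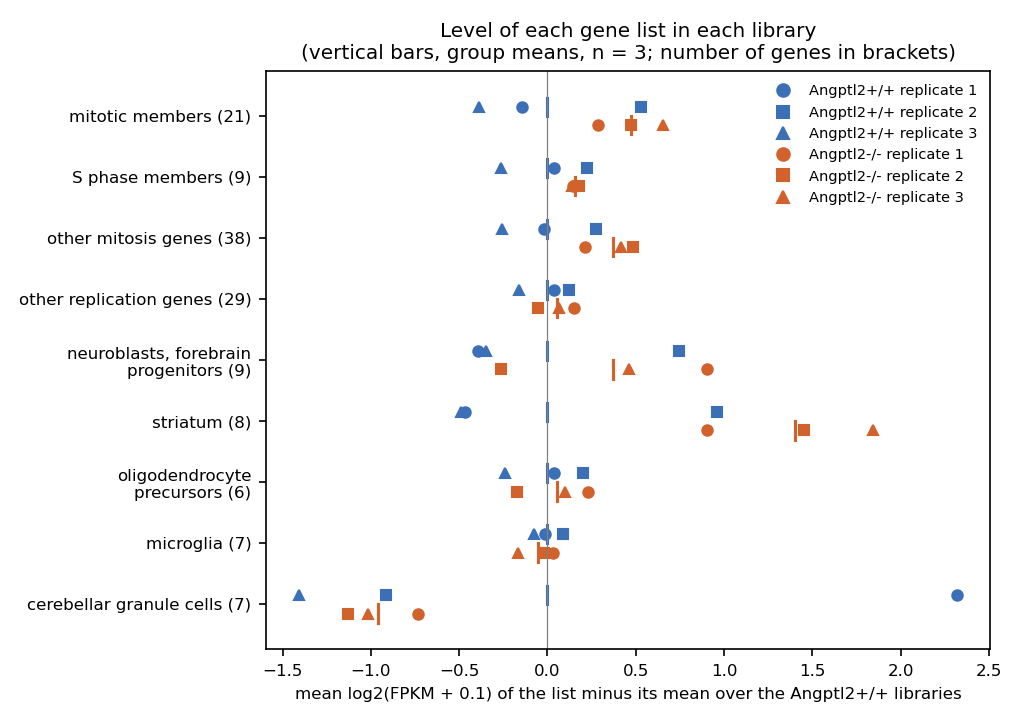
Library by library level of each gene list, as its mean log2(FPKM + 0.1) relative to its mean over the Angptl2+/+ libraries; vertical bars are group means (n = 3), brackets give the number of genes, and colours and shapes mark genotype and replicate. The mitotic members reach 0.53 in Angptl2+/+ replicate 2, within the 0.28 to 0.65 of the Angptl2-/- libraries, and striatal markers reach 0.96 in that library against 0.90 to 1.84.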

How the data were processed

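Brain RNA of 3 Angptl2+/+ and 3 Angptl2-/- samples was sequenced on an Illumina HiSeq instrument. What the authors deposited is a table of FPKM. Bowtie 0.12.2 and mm8 stand in the submitters' processing notes. How reads were counted, on which annotation and whether by strand is not given in the sources used here. Left-out columns of values numbered 0. GENCODE M21 (GRCm38) gave symbols and lengths, since it holds 54495 of 54532 and whose exon lengths turned 96.6 to 96.8% of the FPKM values above 0 into whole fragments, within 0.05. Of the 180 values of members, 172 were whole, and the other 8 belong to Kif11 and Kif20a. Fragments give counting error only.

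Genotypes were compared by limma 3.58.1 (R 4.3.3), with empirical Bayes and an intensity trend, on log2(FPKM + 0.1) of all genes whose mean reached 0.5 FPKM, adjusted by Benjamini-Hochberg over all of them. For members below the minimum, log2 differences and exact permutation tests were computed. Medians are over all members unless stated, so that the minimum does not select them. The code was tested on simulated data. The members and lists were chosen with earlier results of these data known, so no test over a list was made. Named genes are the members, Angptl2, the 3 tested genes of smallest p and the most abundant gene of a pathway list, and the most abundant and the smallest-p gene of a marker list. Genes that this rule gives but the text leaves out are not reported here. Cbln3, Gabra6, Atoh1, Barhl1, Xist, the genes that share exons with or copy a member, and the separate mitosis genes were named after their values were seen.

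Alternatives were pseudocounts of 1 and 0.01, no minimum and a minimum of 1, quantile normalization, median-ratio scaling, a fit without intensity trend, a block for the replicate number, leaving out each library, and voom on the recovered fragments. Corrections of the libraries by loess (span 0.3), on GC content or on exon length, were chosen after seeing the data. Promoters and tables were handled in Python 3.11.15 with pandas 2.3.3 and numpy 2.4.6, and figures in matplotlib 3.10.9.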

Additional observations from a re-analysis of the deposited data

How the results depend on the processing

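No member passed the adjusted p under any of the 17 alternatives, of which 6 leave out a library. Over all genes 0 passed it with limma (1054 higher and 1355 lower at an unadjusted p) and 0 with voom (1150 and 1229). Leaving out a library gave 0 to 1 (Gapdh, −5.21, without Angptl2+/+ replicate 1), 465 to 1373 higher and 790 to 1656 lower at an unadjusted p, and the GC content correction 507 and 516. With the replicate number as a replicate block 1 gene passed, Ttr (log2 difference 6.92). Numbers alone link the samples: deviations of same-numbered libraries correlated at 0.0371, −0.0693 and 0.162, and Angptl2-/- replicate 1 correlated best with Angptl2+/+ replicate 2 (0.257).

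A minimum mean of 1 FPKM leaves no mitotic member to test, and the count of 4 members higher at an unadjusted p was then 0. It was 3 with the replicate block and 0 to 5 when a library was left out. The S phase minus mitotic difference of −0.32 was −0.073 with a pseudocount of 1. Of the 30 members, 22 kept their sign under every alternative. The other 8 did not: Pcna was −0.079 with the GC content correction. Leaving out a library took Pcna from −0.034 (without Angptl2-/- replicate 3) to 0.12, Rrm2 from −0.44 to 0.060 and Plk1 from −0.72 to 0.056 (both upper values without Angptl2+/+ replicate 2), Mcm2 from −0.061 to 0.36, Mcm3 from −0.019 to 0.60 and Cdk1 from −0.051 to 0.46 (lower values without Angptl2+/+ replicate 3), Kif20a from −0.11 (without Angptl2-/- replicate 3) to 0.32, and Tyms from −0.051 (without Angptl2+/+ replicate 1) to 0.47. The cause was not tested. Mitotic members rested on a median of 26.5 fragments a library and S phase members on 92.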
